A study of Mus musculus with 56 samples.

Results

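Immediate early genes were examined across mouse tissues that lack Fmr1 and across N2a neuroblastoma cells in which Fmr1 or Mbnl1 was knocked down. The set is a list of 38 genes, out of 23259 genes in the deposited tables, and the genes were listed with results of these data in view, above all the muscle and liver comparisons. It covers AP-1 proteins (Fos, Fosb, Fosl1, Fosl2, Jun, Junb, Jund, Atf3 and Maff), EGR zinc finger factors (Egr1 to Egr4), NR4A orphan nuclear receptors (Nr4a1 to Nr4a3), the neuronal activity genes Arc and Npas4, other transcription factors (Klf2, Klf4, Klf6, Klf10, Myc, Csrnp1, Ier2 and Ier5), feedback and mRNA decay genes (Zfp36, Btg2, Dusp1, Dusp2, Dusp5, Ier3, Gadd45b, Gadd45g and Sik1) and secreted products (Cyr61, Ctgf and Cxcl1). RNA-seq was run on 3 brain regions (cerebellum, cortex, hippocampus) and on testis, muscle and liver, with 3 libraries per tissue from wild-type (WT) mice and 3 from Fmr1 KO mice. N2a is a mouse neuroblastoma line. A first N2a experiment compared a non-targeting siRNA (siNT, 2 libraries) with an siRNA against Fmr1 (siFmr1, 3 libraries). A second one, with 3 libraries per group, combined an siRNA with a plasmid: siNT_pcDNA, siFmr1_pcDNA and siMbnl1_pcDNA carried the control plasmid pcDNA, siFmr1_nMBNL1 carried FLAG-tagged nuclear MBNL1, and siMbnl1_cMBNL1 carried FLAG-tagged cytosolic MBNL1. The labels name the knockout only as Fmr1 KO and give no strain, age, sex or animal identity, nor which muscle was taken, nor whether equal replicate numbers in different tissues come from 1 animal. The p-values therefore measure the spread between these libraries.

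Immediate early genes are transcribed within minutes of a stimulus such as a growth factor, depolarisation, stress or injury, without new protein synthesis, because the factors that switch them on (SRF with its TCF partners, CREB and NF-kB) are already present and are activated by kinases. Many of their mRNAs decay quickly, so their level in a tissue sample can follow what happened shortly before it was collected as well as its resting state. In brain they report neuronal activity, in liver they respond to injury, feeding and regeneration, and in muscle they respond to contraction and damage.

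The promoters of 4 genes are shown because these genes had the largest muscle differences among members with a promoter in the reference table. They are Cxcl1, a neutrophil-attracting chemokine, Fosb and Fos, partners of Jun in AP-1, and Cyr61, a secreted matrix protein. Each run is the 250 bases before the start of transcription in RefSeq on GRCm38.p6, read 5′ to 3′ along the gene: chr5:90890995-90891244 on the plus strand for Cxcl1, chr7:19310046-19310295 on the minus strand for Fosb, chr12:85473640-85473889 on the plus strand for Fos and chr3:145649986-145650235 on the minus strand for Cyr61. Capitals mark the motifs found: an NF-kB site in Cxcl1 at -71 to -61, in Fosb at -188 to -179 and in Fos at -214 to -205, an EGR site in Fosb at -50 to -42, and a TATA box in Fos at -33 to -28 and in Cyr61 at -25 to -20, counted from the start.
Cxcl1: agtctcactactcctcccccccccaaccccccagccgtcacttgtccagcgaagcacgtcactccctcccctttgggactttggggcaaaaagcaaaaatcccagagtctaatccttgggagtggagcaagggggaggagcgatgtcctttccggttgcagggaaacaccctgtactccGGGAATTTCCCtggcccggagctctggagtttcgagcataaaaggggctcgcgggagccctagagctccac
Fosb: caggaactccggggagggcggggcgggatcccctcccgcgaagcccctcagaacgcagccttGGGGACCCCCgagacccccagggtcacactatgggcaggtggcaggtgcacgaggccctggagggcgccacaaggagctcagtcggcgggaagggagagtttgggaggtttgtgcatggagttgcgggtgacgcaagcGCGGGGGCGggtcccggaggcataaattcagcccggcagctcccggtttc
Fos: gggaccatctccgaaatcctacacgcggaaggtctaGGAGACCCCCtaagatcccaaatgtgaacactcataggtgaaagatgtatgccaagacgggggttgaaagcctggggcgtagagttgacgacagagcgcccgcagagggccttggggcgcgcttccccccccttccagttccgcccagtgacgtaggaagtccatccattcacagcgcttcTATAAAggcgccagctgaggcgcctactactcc
Cyr61: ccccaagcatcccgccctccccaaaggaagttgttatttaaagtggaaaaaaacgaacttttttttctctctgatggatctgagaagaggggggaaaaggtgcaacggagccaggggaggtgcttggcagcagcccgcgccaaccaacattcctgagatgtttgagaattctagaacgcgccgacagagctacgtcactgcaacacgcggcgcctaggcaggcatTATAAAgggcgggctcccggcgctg

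The 6 motifs listed here were searched on both strands: the cyclic AMP response element TGACGTCA, the AP-1 site TGANTCA, the EGR site GCGNGGGCG, the TATA box TATAAA, the CArG box bound by SRF and the NF-kB site. Of the 38 members, 29 had a promoter in the table. The EGR site occurred in 10 of these 29 (34.5%) and in 4.7% of all 32851 promoter windows of the same length. An NF-kB site occurred in 6 of 29 (Fos, Fosb, Fosl2, Egr4, Ier3 and Cxcl1) and in 3.9% of all windows, and a TATA box in 5 of 29 and 12.4%. The cyclic AMP response element was found in 2 members (Btg2 and Dusp1), against 1.55% of all windows, the CArG box in 2 (Zfp36 and Dusp5), against 1.47%, and the AP-1 site in 0, against 6.75%. These are matches of letters in a short window. Sites lying further upstream were not searched.

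Markers of each labelled tissue were present. All 10 skeletal muscle fibre markers, all 8 hepatocyte markers and all 8 germ cell markers had a CPM (a count scaled to library size) above 1 in muscle, liver and testis, and so were all 8 neuroblastoma markers in N2a and all 9 neuron markers in each brain region. Fmr1 mRNA in the knockout libraries was 25.6% to 32.6% of WT in 5 tissues and 65.4% in muscle, where the libraries ranged from 8.06 to 10.3 CPM in knockout and from 12 to 17.6 CPM in WT. The part of the transcript that these counts cover in the knockout was not examined. Fmr1 was 21.0% of control in the first N2a experiment, where the 2 siNT libraries were as far apart as 22.4 and 77.7 CPM and the siFmr1 libraries ran from 2.12 to 14.7 CPM, and 19.2% and 17.4% in the siFmr1_pcDNA and siFmr1_nMBNL1 groups, and Mbnl1 was 33.8% of control in the siMbnl1_pcDNA group. Library totals ran from 26264368 to 41384652 counts in brain and from 13230785 to 16268865 in the other tissues and the first N2a experiment. In a whole tissue, a change in RNA per cell and a change in the share of a cell type cannot be told apart.

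In muscle, most immediate early genes were far higher in 2 of the 3 WT libraries than in any knockout library. The remaining WT library, WT 1, had no common direction. It lay above every knockout library for 12 of 35 members, below every one for 13 and within their range for 10. This comparison is among those used to choose the genes, so its values, counts of calls included, are a description and no p is given for a member. The 35 members in the muscle table were Fosl1, Egr4 and Npas4 short of the full list, and all 35 passed the filter on low counts. Values below are CPM scaled within the 6 libraries of a tissue, in the order WT 1, WT 2 and WT 3, then KO 1, KO 2 and KO 3, and a log2 difference is KO minus WT from edgeR.

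Among the AP-1 proteins, Fos stood at 46.7, 389 and 331 CPM in WT and at 27.0, 8.73 and 7.40 CPM in KO muscle, a log2 difference of -4.15. Fosb, which is closely related to Fos, stood at 3.02, 145 and 113 CPM in WT and 6.49, 2.91 and 0.925 CPM in KO, a log2 difference of -4.65. WT 2 and WT 3 were high for both genes, and for Fosb WT 1 lay inside the knockout range. Junb, a Jun relative that can restrain Jun activity, stood at 34.8, 355 and 427 CPM in WT and 74.8, 24.8 and 19.1 CPM in KO (-2.78), and Atf3, a stress-induced repressor, at 12.7, 80.5 and 87.7 and 22.2, 6.31 and 8.79 CPM (-2.27). Fosl2 stood at 36.5, 218 and 226 and 126, 67.2 and 39.7 CPM (-1.04). For these 3 genes, too, the groups overlapped only through WT 1. Jun, the founding AP-1 protein, stood at 103, 291 and 321 CPM in WT and 304, 186 and 156 CPM in KO (-0.14), and Jund, its constitutive relative, at 62.5, 122 and 160.4 and 148, 82.2 and 86.2 CPM (-0.12). In Jun and Jund the KO 1 library was above WT 2, and WT 1 was the lowest of all 6. Maff, a small Maf protein without an activation domain, had a log2 difference of -1.58.

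The EGR factors had WT above KO in nearly every library. Egr1 stood at 76.3, 295 and 379 CPM in WT and 18, 8.30 and 13.1 CPM in KO (-4.25), Egr3 at 10.9, 53.4 and 40.7 and 3.67, 1.49 and 2.78 CPM (-3.71), and the less abundant Egr2 at 2.94, 23.9 and 28.5 and 3.28, 1.84 and 1.12 CPM (-3.14). For Egr1 and Egr3 even WT 1 exceeded all 3 knockout libraries, whereas for Egr2 WT 1 fell within their range. The NR4A receptors differed less, and the knockout libraries kept substantial levels. Nr4a1, a regulator of muscle metabolism, stood at 238, 955 and 1074 CPM in WT and 525, 319.5 and 334 CPM in KO (-0.94). Nr4a2 stood at 6.68, 58.9 and 52.9 and 21.9, 13.5 and 7.34 CPM (-1.47) and Nr4a3 at 1.44, 46.7 and 32.2 and 26, 14.3 and 22.5 CPM (-0.35). In all 3 receptors WT 1 was the lowest of the 6 libraries. Arc, best known at synapses, was low in muscle, at 3.59, 11.6 and 21.6 CPM in WT and 2.29, 2.20 and 1.65 CPM in KO (-2.57).

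Of the other transcription factors, Klf2, which is induced by blood flow in endothelium, stood at 51.3, 192 and 235 CPM in WT and 51.0, 28.7 and 32.6 CPM in KO (-2.09). Csrnp1 stood at 7.83, 33.9 and 60.2 and 7.41, 3.83 and 4.69 CPM (-2.67) and Ier2 at 20.3, 46.1 and 78.7 and 15.1, 11.9 and 12 CPM (-1.89). All WT libraries were above all KO libraries for these 3 genes, by a small margin in WT 1 for Klf2 and Csrnp1. The log2 difference was -1.76 for Klf4, -0.59 for Klf6, -0.15 for Klf10 and -0.45 for Myc. Ier5 stood at 18.2, 38.2 and 50 CPM in WT and 63.6, 41.9 and 37.9 CPM in KO and was 1 of 2 members with a positive difference (0.43). The other was Ctgf (0.24), a matrix protein related to Cyr61.

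Feedback genes followed the same libraries. Btg2, an antiproliferative cofactor of mRNA deadenylation, stood at 56.4, 482 and 486 CPM in WT and 139, 44.7 and 43.3 CPM in KO (-2.17), and Dusp1, the phosphatase that turns off p38 and JNK, at 94.5, 401 and 433 and 136, 86.6 and 97.4 CPM (-1.54). Both were high in WT 2 and WT 3 and near the knockouts in WT 1. Gadd45b, a stress sensor, stood at 27.3, 60.0 and 54.7 CPM in WT and 19.4, 13.3 and 13 CPM in KO (-1.63) without overlap. The log2 difference was -1.91 for Zfp36, whose protein degrades AU-rich mRNAs, -1.41 for Sik1, -1.11 for Dusp2, -0.78 for Gadd45g, -0.52 for Dusp5 and -0.37 for Ier3. Of the secreted products, Cyr61 stood at 67.3, 257 and 311 CPM in WT and 25.8, 9.37 and 19.1 CPM in KO (-3.55). Cxcl1 stood at 0.862, 17.0 and 29.4 CPM in WT and 0.459, 0.639 and 0.264 CPM in KO (-5.10), the largest difference of any member in muscle. In both, every WT library was above every KO library. For Cxcl1, WT 1 and all KO libraries were under 1 CPM. The size of its difference and its separation through WT 1 therefore rest on values near the floor.

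Over the 35 members, 33 log2 differences were below 0 and the median was -1.58, beside a median of -0.00 over all 12688 genes tested. The adjusted p was under 0.05 for 11 members, all lower (Arc, Csrnp1, Cxcl1, Cyr61, Egr1, Egr2, Egr3, Fos, Gadd45b, Ier2 and Klf2). The same threshold was passed by 4.04% of all genes, 1.03% of them lower and 3% higher. Since the members were chosen on this comparison, nothing is read from that count. Without WT 1 the count was 26, without WT 2 or WT 3 it was 6, and without any 1 knockout library it was 0 to 3.

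**Figure D1:**
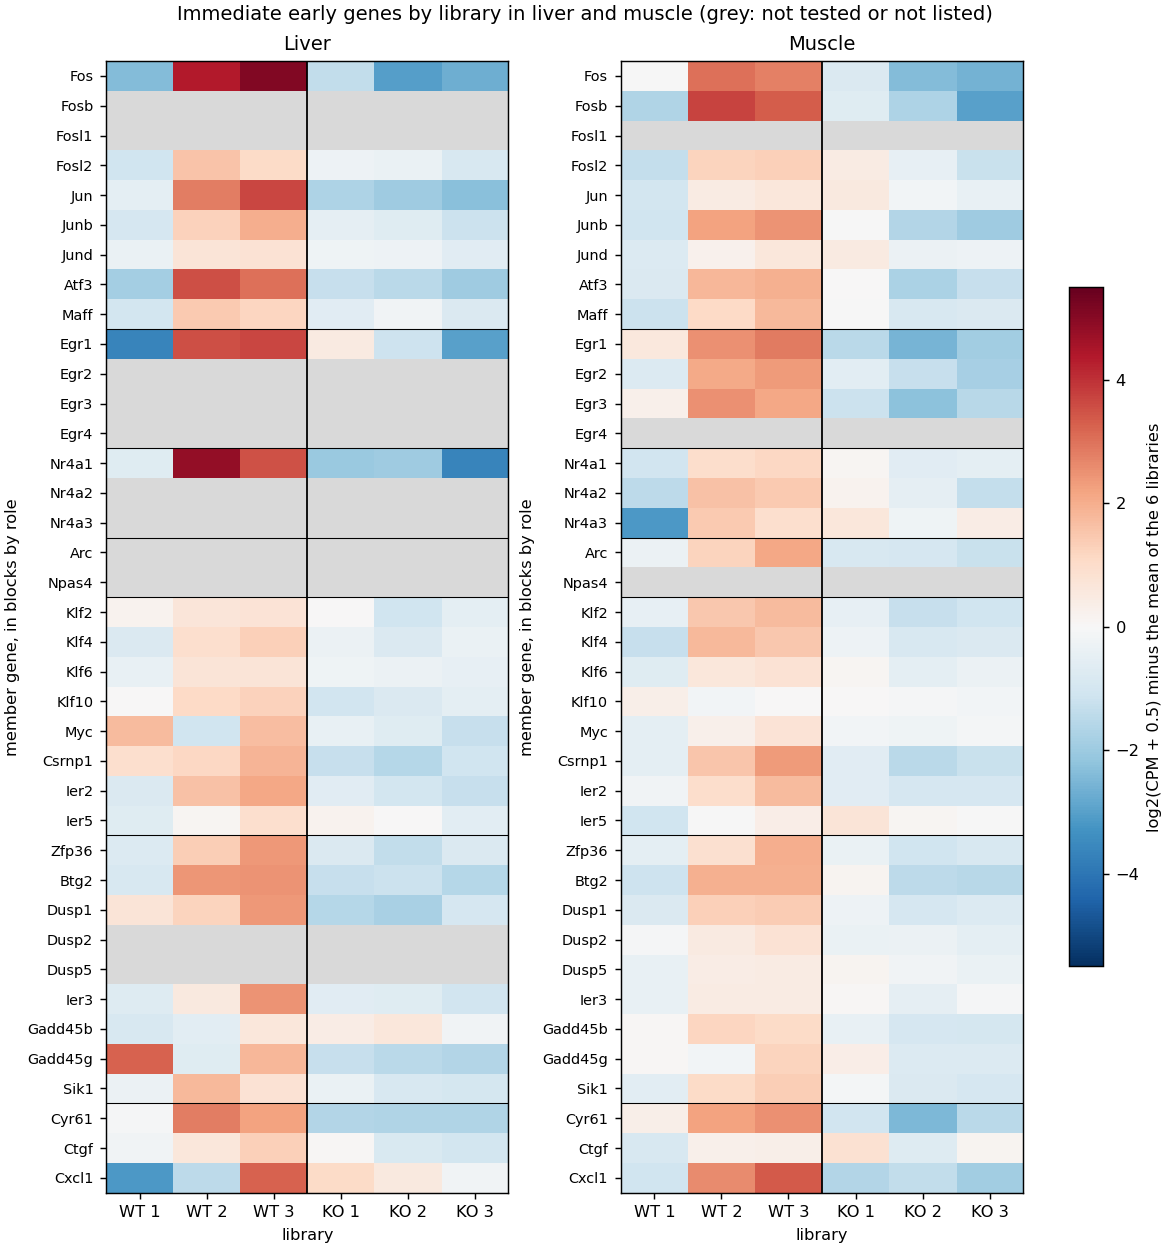
Heat map of each member in each of the 6 liver and 6 muscle libraries, colour giving log2(CPM + 0.5) minus the member's mean over the 6 libraries of that tissue (grey where not tested or not listed); rows are members grouped by role and columns are WT 1 to 3 and KO 1 to 3. WT 2 and WT 3 are the high columns in both tissues, while WT 1 is pale or blue for most rows, like the KO columns.

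The spread lay between WT libraries rather than between knockouts. In muscle the highest WT library exceeded the lowest by a median of 4.60-fold over the members (CPM with 0.5 added), beside 1.26-fold over all genes. The ratio was above 4-fold for 21 of 35 members and for 0.701% of all genes, and Fosb, at 41.5-fold, was the most variable of all 12688 genes in WT muscle. Among the knockout muscle libraries the members' median was 1.79-fold, beside 1.19-fold over all genes, and Fosb alone passed 4-fold (4.91). WT liver was more uneven still, with a median of 7.16-fold over 27 members beside 1.37-fold over all genes, and with 18 of 27 members above 4-fold beside 1.06% of all genes. Fos differed 177-fold in WT liver. In knockout liver the median was 1.55-fold, beside 1.20-fold, and Egr1 alone passed 4-fold (11.1).

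The same 2 library names were high in both tissues. WT 2 and WT 3 were the 2 highest of the 6 libraries for 22 of 27 members in liver (81.5%, beside 11.9% of all genes) and for 29 of 35 in muscle (82.9%, beside 6.36%). For 18 of the 27 members measured in both tissues this held in both: Atf3, Btg2, Csrnp1, Cyr61, Dusp1, Egr1, Fos, Fosl2, Ier2, Ier3, Junb, Klf2, Klf4, Klf6, Maff, Nr4a1, Sik1 and Zfp36. WT 3 exceeded every knockout library for 26 of 27 members in liver and 32 of 35 in muscle, and WT 2 for 23 and 29. WT 1 did so for 12 of 27 and 12 of 35 and lay below every knockout library for 6 and 13. Over all genes, a single WT library of these tissues exceeded every knockout library for 31.3% to 37.3% of genes. WT 1 lay below every knockout library for 36.3% of all genes in liver and 38% in muscle. Whether liver WT 2 and muscle WT 2 come from 1 mouse is not given in the sources used here.

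**Figure D2:**
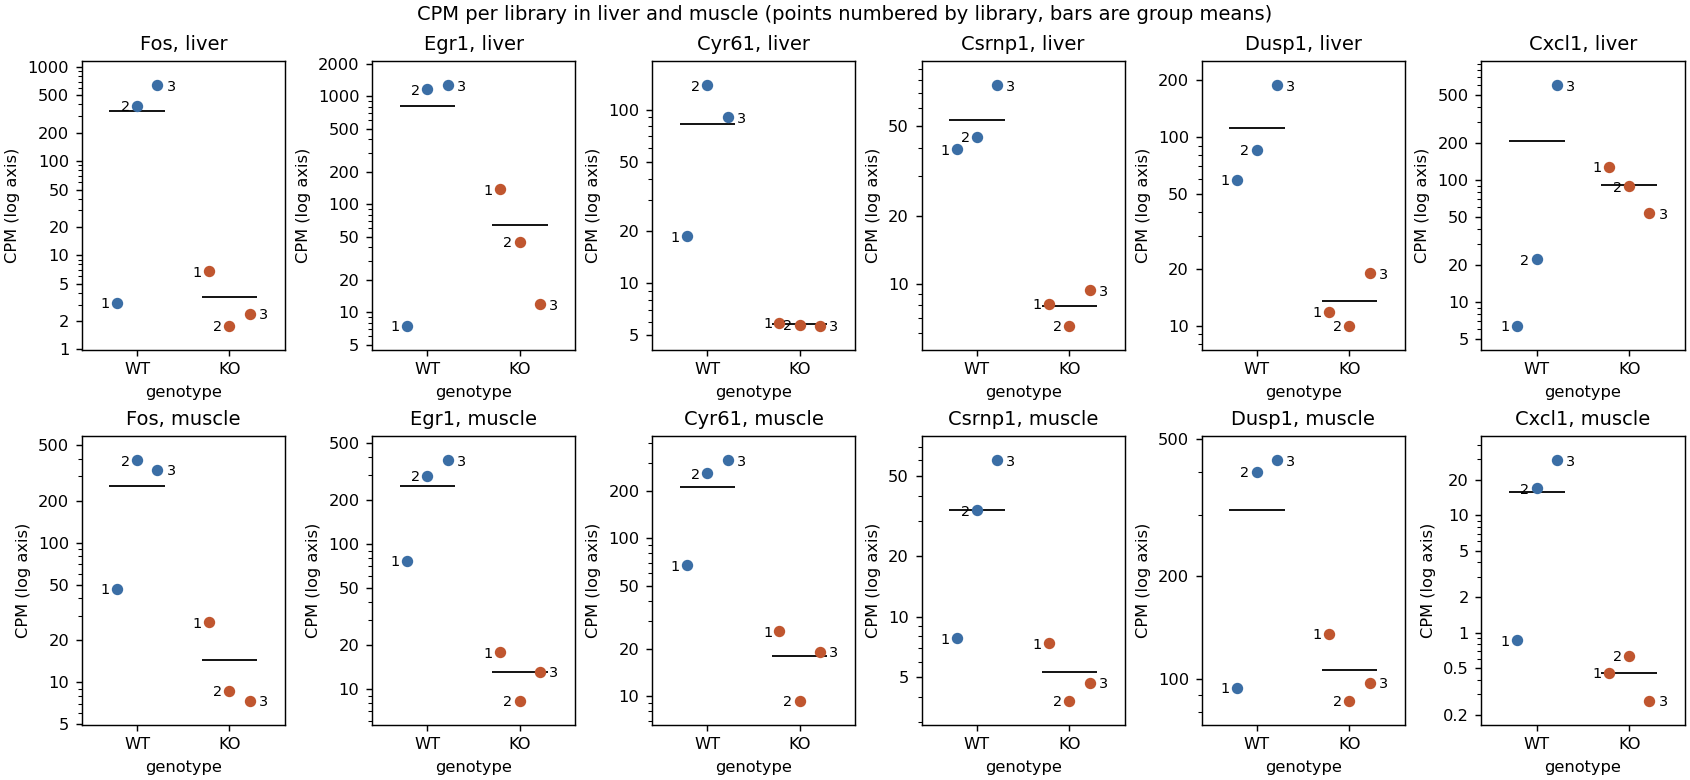
Points give CPM on a log axis for selected members in each liver and muscle library, WT beside KO, with the library number at each point and bars at group means. WT 1 lies among the KO points for Fos in liver and Dusp1 in muscle and below them for Egr1 in liver, while for Csrnp1 and Cyr61 in liver all WT points are above all KO points.

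In liver the direction was the same, and 3 members, Csrnp1, Dusp1 and Cyr61, were past edgeR's threshold (quasi-likelihood test, Benjamini-Hochberg adjustment over all genes). This comparison, too, was in view when the genes were listed, so it is described as muscle is. Of the 38 members, 29 were in the liver table (Fosb, Fosl1, Egr2, Egr3, Egr4, Nr4a3, Arc, Npas4 and Dusp5 were not), and Nr4a2 and Dusp2 did not pass the filter. The 3 calls among 27 tested members stand beside 0.411% of all genes called, and 24 of 27 had an unadjusted p under 0.05 beside 11.4% of all genes. Nothing is read from these counts. Csrnp1 stood at 39.6, 44.9 and 76.2 CPM in WT and 8.12, 6.50 and 9.33 CPM in KO liver, a log2 fold change of -2.74. Dusp1 stood at 59.2, 85.5 and 188 CPM in WT and 11.8, 10.0 and 18.9 CPM in KO (-3.03). Cyr61 stood at 18.7, 138 and 90.1 CPM in WT and 5.92, 5.75 and 5.69 CPM in KO (-3.83). These 3 genes had all WT libraries, WT 1 included, above all KO libraries. Csrnp1 was the only member called when any 1 knockout library was left out, 2 members (Csrnp1 and Dusp1) were called without WT 3, 5 without WT 2 (with Gadd45g and Myc added) and 20 without WT 1.

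The members with the largest liver differences had widely spread WT values. DESeq2 put 13 members past the threshold, among them Fos, Nr4a1, Jun, Atf3 and Btg2, which edgeR did not. It called 277 genes in all, where edgeR called 49. Fos stood at 3.13, 386 and 642 CPM in WT and 6.74, 1.79 and 2.40 CPM in KO (-6.55), and Nr4a1, a regulator of gluconeogenesis in liver, at 7.63, 369 and 146 and 2.68, 2.84 and 0.549 CPM (-6.43). In WT 1, Fos was inside the knockout range and Nr4a1 was above it. Jun stood at 45.3, 459.8 and 841 CPM in WT and 20.2, 16.6 and 13 CPM in KO (-4.75) with no overlap between the groups. Egr1 stood at 7.49, 1159.8 and 1263 CPM in WT and 137, 44.5 and 11.8 CPM in KO (-3.66), and here the lowest library was WT 1 and KO 1 was the highest knockout. Atf3 (1.2, 70.1 and 49.0 against 2.06, 1.72 and 1.10 CPM), Junb (53.4, 242 and 404 against 72.2, 63.2 and 44.6 CPM) and Btg2 (17.3, 175 and 181 against 12.9, 13.7 and 10.4 CPM) had log2 differences of -4.62, -1.96 and -3.34.

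A few members did not follow WT 2 and WT 3. Gadd45g stood at 98.4, 6.08 and 36.9 CPM in WT and 3.92, 3.29 and 2.95 CPM in KO (-3.79), and Myc, which drives growth and ribosome synthesis, at 24.9, 3.04 and 23.9 and 5.16, 4.33 and 2.67 CPM (-2.08). WT 1 was the highest library for both, and WT 2 was the lowest WT library. Cxcl1 stood at 6.40, 22.4 and 599 CPM in WT and 128, 89.1 and 53.3 CPM in KO (-1.21). WT 3 was far above all others, and the knockouts were above WT 1 and WT 2, the reverse of muscle. Klf2 did have WT 2 and WT 3 as its 2 highest libraries, with WT 1 not far below them. It stood at 13.3, 18.7 and 19.3 CPM in WT and 11.7, 5.01 and 7.68 CPM in KO (-1.07). Gadd45b, at 0.681, 0.973 and 2.87 CPM in WT and 2.41, 2.91 and 1.44 CPM in KO, was the only liver member with a positive difference (0.60). In all, 26 of 27 differences were below 0, the median was -2.08 and the median of all 11928 genes was -0.00. Of the 27 members tested in both tissues, 24 were lower in both, and Csrnp1, Cyr61 and Klf2 separated the genotypes completely in both. The background for complete separation with WT higher was 8.15% of genes in liver and 15.1% in muscle.

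**Figure D3:**
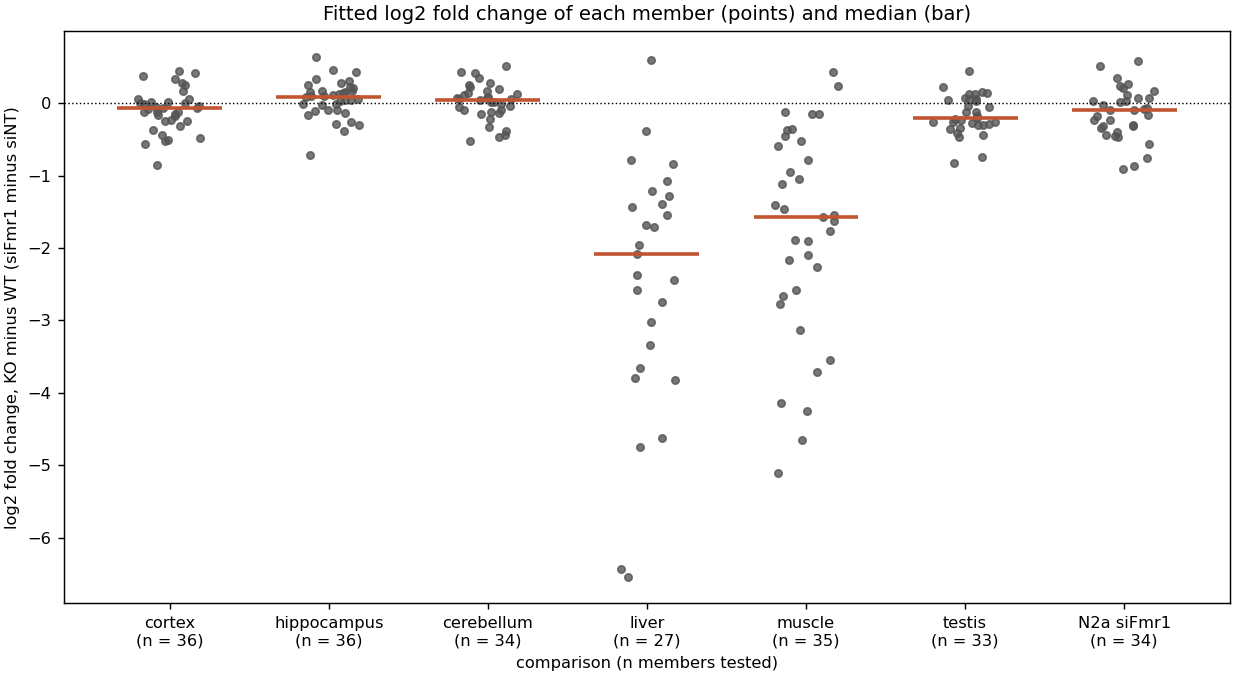
Log2 fold change of each tested member, KO minus WT in the 6 tissues and siFmr1 minus siNT in the first N2a experiment; each point is a member and the bar is the median. Liver and muscle members lie mostly below 0, with medians of -2.08 and -1.58, while the medians of the other 5 comparisons lie between -0.21 and 0.09.

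Genes around this set were described through 5 further lists, whose counts stand beside 4.04% of all genes called and 25.9% at an unadjusted p under 0.05 in muscle, and 0.411% and 11.4% in liver. These lists, too, were chosen with earlier results of these data known, so nothing is read from their counts. The kinases and factors upstream of immediate early genes (SRF, CREB and ERK pathway, 21 genes) had 0 members called by edgeR in muscle and 0 in liver, with 2 and 4 at an unadjusted p under 0.05 and medians of 0.05 and -0.11. Of 20 delayed response genes tested in muscle, 3 were lower: Gem, a small GTPase (-2.22), Rgs2, which dampens G protein signalling (-1.44), and Homer1, a scaffold of postsynaptic and muscle calcium channels (-0.48). In liver 1 of 16 was lower, the stress kinase Plk3, at 115, 226 and 327 CPM in WT and 56.8, 43.2 and 43.6 CPM in KO (-2.22). At an unadjusted p under 0.05 by edgeR there were 8 of 20 in muscle and 9 of 16 in liver. Heat shock and metal stress genes gave 4 lower of 14 in muscle, with 6 at an unadjusted p under 0.05. The chaperone Hspa1a stood at 70.9, 489 and 580.3 CPM in WT and 64.1, 22.6 and 26.4 CPM in KO (-3.33), high again in WT 2 and WT 3 only. Hspa1b (-3.56), Dnajb1 (-2.78) and Chac1 (-1.83) were the others, and Hspa1a and Hspa1b are near-identical copies whose counts can be exchanged. In liver 0 of 14 were called, with 5 at an unadjusted p under 0.05. Of 10 inflammatory genes tested in muscle, Socs3 was lower (-1.46) and Irf1 (0.93) and Csf1 (0.71) were higher, with 7 at an unadjusted p under 0.05. In liver 0 of 10 were called, with 4 at an unadjusted p under 0.05. The glucocorticoid list had 0 of 10 called in each tissue, with 1 in muscle and 2 in liver at an unadjusted p under 0.05.

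Markers of other cell types moved with genotype in these tissues. In muscle the summed CPM of macrophage markers was 136 to 153 in WT and 222 to 228 in KO (9 of 10 listed, 5 called higher), that of fibroblast markers 1756 to 2787 and 3564 to 4682 (6 of 6 listed, 4 called higher), and that of adipocyte markers 268 to 370 and 387 to 558 (6 of 6 listed, 0 called). These sums were higher in knockout muscle, where most members were lower, and muscle fibre, endothelium and red blood cell sums overlapped between genotypes. In liver the hepatocyte sum was 92028 to 102781 in WT and 103534 to 125434 in KO (8 of 8 listed, 1 called higher), and the fibroblast sum was 154 to 180.5 and 224 to 226 (6 of 6 listed, 0 called), with macrophage, neutrophil and endothelium sums overlapping. The part of cell composition in the members' values was not tested.

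In brain, no member passed the test in cortex, hippocampus or cerebellum. The count was 0 of 36, 0 of 36 and 0 of 34 by edgeR, beside 0.0203%, 0.209% and 0.226% of all genes called, and 8, 5 and 5 members had an unadjusted p under 0.05, beside 21%, 12.5% and 8.72% of all genes. DESeq2 called 3 members in cortex (Ctgf, Jund and Klf10), among 914 genes in all, and 0 members in each of the other regions. With all 18 brain libraries in the fit, edgeR called 5 members in cortex, among 1277 genes in all. The reported cortex fit called 3 genes in all, so these alternatives raised the calls over all genes as well. Median log2 differences were -0.07, 0.09 and 0.05. Fosl1 and Cxcl1 were not in the brain table, and Egr2 and Dusp2 did not pass the filter in cerebellum.

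In cortex the smallest p-values belonged to Klf10, a TGF-beta response factor, with 42.1, 43.8 and 45.1 CPM in WT and 28.3, 35.4 and 32.4 CPM in KO (-0.45, SE 0.09, adjusted p = 0.0668 by edgeR), Jund, with 50.3, 40.9 and 33.7 and 28.2, 30.3 and 28.2 CPM (-0.52, SE 0.13, adjusted p = 0.091), and Dusp5, a nuclear ERK phosphatase, with 4.24, 4.33 and 2.5 and 1.84, 2.21 and 2.08 CPM (-0.85, SE 0.23, adjusted p = 0.107). The groups did not overlap in these 3 genes, with knockout below WT, as in 12.8% of all genes. All 3 were past the threshold without the library WT 3, when 6 members were called among 1102 genes in all. In hippocampus they were Fosb (5.49, 6.04 and 5.28 CPM in WT and 3.87, 4.47 and 4.53 in KO, -0.38, SE 0.11, adjusted p = 0.266 by edgeR), Klf4 (4.0, 3.92 and 3.53 and 5.08, 4.51 and 5.73, 0.42, SE 0.13, 0.266) and Klf2 (3.21, 2.97 and 3.48 and 3.94, 3.83 and 5.48, 0.46, SE 0.17, 0.34). In cerebellum they were Junb (5.38, 4.43 and 5.30 CPM in WT and 6.39, 6.83 and 7.08 in KO, 0.43, SE 0.11, adjusted p = 0.228 by edgeR), Ier2 (10.5, 9.82 and 11.4 and 10.8, 16.9 and 14.5, 0.41, SE 0.14, 0.367) and Nr4a3 (5.16, 5.60 and 4.98 and 3.00, 5.07 and 2.86, -0.52, SE 0.19, 0.431). Junb separated the genotypes, with knockout higher, and Ier2 and Nr4a3 overlapped. Knockout libraries lay all above WT in 7.48% of all genes here. In hippocampus the groups did not overlap for the 3 genes named, and 9.35% of all genes had every knockout library below WT and 9.48% above. In hippocampus the summed CPM of oligodendrocyte markers was 5231 to 5580.3 in WT and 4335 to 4456 in KO (6 of 6 listed, 3 called lower), and that of astrocyte markers 5759.7 to 6147 and 6314 to 7041 (6 of 6 listed, 0 called). In cerebellum the endothelium sum was 102 to 116 in WT and 120.4 to 127 in KO and the cerebellum neuron sum 4126 to 4506 and 4565 to 4642, and in cortex the red blood cell sum was 162 to 195 and 136 to 141 (0 called in each). Their part in the members' values was not tested.

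The activity genes varied widely within each genotype. Fos in cortex stood at 12.9, 11.8 and 18.4 CPM in WT and 10.7, 22.6 and 22.3 CPM in KO, and in cerebellum at 4.04, 5.15 and 15.8 and 3.25, 23.6 and 9.88 CPM. Arc in cortex stood at 72.0, 74.1 and 138 CPM in WT and 45.4, 124 and 103 CPM in KO, and Npas4, a neuron-specific factor induced by calcium entry, at 9.24, 12 and 21.5 and 13.6, 21.2 and 23.5 CPM. The cortex KO 1 library was low for Fos and Arc and was the lowest of the 6 cortex libraries for 20 of 36 members. Egr1 in cortex was even, at 252, 269 and 238 CPM in WT and 244, 252 and 270.2 CPM in KO. In knockout cerebellum Fos differed 6.43-fold between the highest and lowest library (CPM with 0.5 added, as in the ratios that follow), the largest such ratio of all 14627 genes. The members' median ratio within a group was above the median over all genes in each of the 6 groups, at 1.18-fold beside 1.11-fold in WT hippocampus and 1.26-fold beside 1.09-fold in knockout cerebellum, for example. The difference in genotype effect between regions was tested in 1 edgeR model of 18 libraries. It passed for 0 members in each of the 3 pairs of regions, with 6 (cortex against hippocampus), 7 (cortex against cerebellum) and 1 (hippocampus against cerebellum) at an unadjusted p under 0.05, beside 0%, 0% and 0.00645% of all genes called and 10.1%, 15.2% and 5.31% at an unadjusted p under 0.05.

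**Figure D4:**
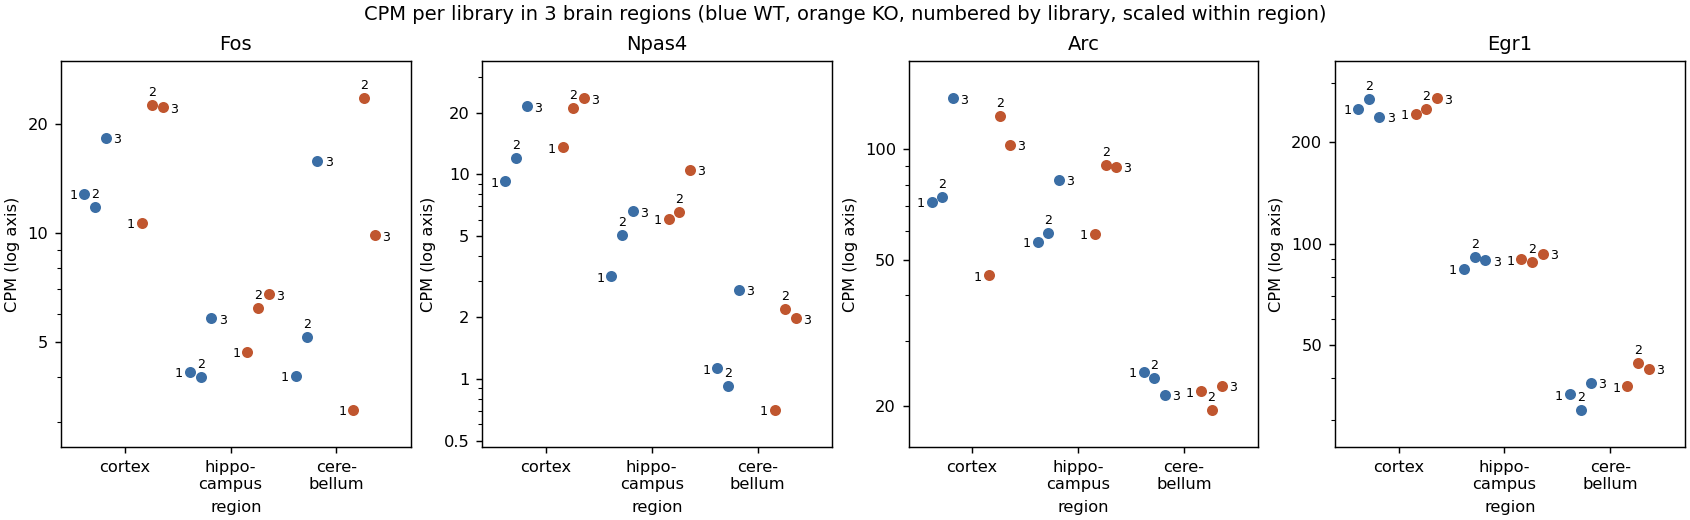
CPM of selected members in each brain library, WT beside KO in cortex, hippocampus and cerebellum, on a log axis (CPM scaled within a region) with the library number at each point. WT and KO points intermingle, while levels differ between regions, Egr1 being highest in cortex.

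Many members differed between regions of WT brain, and so did many other genes. On the scale of all 18 libraries, 27 of 36 were called by edgeR between cortex and cerebellum (21 higher in cortex, beside 70% of all genes called), 24 between hippocampus and cerebellum (20 higher in hippocampus, beside 70%) and 21 between cortex and hippocampus (13 higher in cortex, beside 47.5%). Egr3, which acts in synaptic plasticity, stood at 0.496, 0.757 and 0.673 CPM in cerebellum, 98.5, 96.1 and 93.6 CPM in hippocampus and 203, 209 and 155 CPM in cortex. The cerebellar libraries were under 1 CPM, and all hippocampal libraries were below all cortical ones. The same order held for Egr1, at 34.9, 31.3 and 38.0, 84.6, 91.8 and 90.5 and 258, 275 and 242 CPM, and for Fosb, at 0.461, 0.291 and 0.505, 5.51, 6.07 and 5.35 and 13.2, 12.6 and 9.17 CPM. Npas4 also followed it, at 1.10, 0.902 and 2.67, 3.18, 5.07 and 6.67 and 9.45, 12.3 and 21.8 CPM. Some members had another order. Nr4a3 was highest in hippocampus (5.03, 5.44 and 4.88 in cerebellum, 28.8, 32.8 and 32.4 in hippocampus and 8.95, 8.40 and 7.45 CPM in cortex), and Dusp5 was highest in cerebellum (32.9, 30.9 and 26.5, 5.90, 5.25 and 6.31 and 4.34, 4.42 and 2.53 CPM). Jun stood at 83.0, 75.6 and 74.0, 115, 108 and 112 and 43.9, 40.0 and 40.1 CPM in the same order of regions, lowest in cortex.

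In testis, 3 of 33 tested members were lower in knockout by edgeR, beside 4.27% of all genes called (2.28% lower and 2% higher), and the changes were small. Sik1, a kinase that restrains CREB coactivators, stood at 38.1, 32.5 and 38.9 CPM in WT and 28.7, 26.7 and 24.9 CPM in KO (-0.45, SE 0.09, adjusted p = 0.00252). Jund stood at 90.4, 92.0 and 98.3 CPM in WT and 89.5, 66.0 and 64.3 CPM in KO (-0.36, SE 0.08, adjusted p = 0.00672), and Csrnp1 at 48.7, 50.6 and 51.9 and 49.6, 35.1 and 39.4 CPM (-0.29, SE 0.09, adjusted p = 0.0456). Sik1 separated the genotypes, Jund did so narrowly through KO 1, and Csrnp1 overlapped through KO 1. Complete separation was found for 9.75% of all genes with knockout lower and 10.9% with knockout higher. Sik1 alone was called without KO 2, without KO 3 and by DESeq2, Csrnp1 was also lost without any 1 WT library, and 6 members were called without KO 1. Genes called in all were 175 without KO 2, 174 without KO 3, 481 by DESeq2 and 1256 without KO 1, beside 661 in the reported fit. Fos, Egr2, Atf3 and Cxcl1 were not in the testis table and Myc did not pass the filter. Arc was the most abundant member per kilobase here, at 238, 288 and 281 CPM in WT and 286, 249 and 245 CPM in KO. Of 33 differences, 22 were below 0, and the median was -0.21. Leydig and Sertoli cell markers summed to 2110.0 to 2695 CPM in WT and 1925 to 2048 CPM in KO (9 of 9 listed, 4 called lower), and macrophage markers to 246 to 273 and 273 to 305 (9 of 10 listed, 0 called). Their part in the members' values was not tested. Among the further lists, Crtc2, a CREB coactivator, was lower (-0.49, adjusted p = 0.0129), and Etv5 (0.51, adjusted p = 0.00193) and Mt1 (0.20, adjusted p = 0.0478) were higher. Etv5, an ETS factor downstream of ERK, was also higher in hippocampus (0.71, adjusted p = 0.0331) and cerebellum (0.97, adjusted p = 4.54e-05). Zbtb16, of the glucocorticoid list, was called lower in cerebellum. No other gene of the further lists was called by edgeR between genotypes in a brain region.

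In the first N2a experiment no member passed the test. The count was 0 of 34 by edgeR and 0 by DESeq2, 0 members had an unadjusted p under 0.05, and 0% of all genes were called, with 0.386% at an unadjusted p under 0.05. Libraries of 1 group differed as much as the groups. Ier3, an apoptosis regulator, stood at 9.65 and 139.7 CPM with siNT and 11.5, 24.8 and 95.7 CPM with siFmr1, and Egr1 at 5.99 and 36.1 and 5.03, 43.5 and 31.9 CPM. Both had 1 low siNT library and 1 low siFmr1 library, each numbered 1. Ier3 differed 13.8-fold between the siNT libraries (CPM with 0.5 added), the largest ratio of all 12187 genes. The members' median ratio within siNT was 1.75-fold, beside 1.61-fold over all genes.

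With co-transfection, 17 of 36 members passed the test with the siRNA against Fmr1 and 13 with the siRNA against Mbnl1, mostly lower with the former and higher with the latter. Values are the authors' normalized counts, log2 changes are on the log2(value + 1) scale, and calls are from limma with Benjamini-Hochberg adjustment over 16242 genes. All comparisons with siNT_pcDNA share those 3 libraries, whose median standard deviation over all genes was 0.24 log2 units, beside 0.10 to 0.11 in the other groups, and in siNT_pcDNA 2 the 10 most abundant genes held 5.30% of the total. Egr4 and Ctgf did not pass the filter. Of 36 members, 15 fell and 2 rose with siFmr1_pcDNA, beside 37% of all genes called (17.5% lower and 19.5% higher). Cyr61 stood at 757, 743 and 767 with siNT_pcDNA and 272, 225 and 221 with siFmr1_pcDNA (-1.66, SE 0.12, adjusted p = 9.92e-08). Egr3 stood at 687, 726 and 751 and 327, 219.7 and 299 (-1.37, SE 0.18, adjusted p = 2.69e-05), and Klf4, a pluripotency and differentiation factor, at 535, 563 and 649 and 262, 249.9 and 281 (-1.14, SE 0.09, adjusted p = 3.5e-07). The knockdown libraries of these 3 genes were all below the control libraries. Arc rose, from 248, 342 and 345 to 628, 569 and 536 (0.90, SE 0.16, adjusted p = 0.000491), as did Myc (0.28). Smaller decreases were called in Dusp1 (-0.81), Nr4a2 (-0.62), Zfp36 (-0.61), Fosl2 (-0.57), Dusp2 (-0.56), Dusp5 (-0.47), Maff (-0.41), Atf3 (-0.40), Csrnp1 (-0.39), Ier2 (-0.39) and Klf6 (-0.30), and Klf10 had the smallest. Nr4a2 was not called without siFmr1_pcDNA 2, and Ier2 was not called without any 1 siFmr1_pcDNA library or without siNT_pcDNA 1 or 3.

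With siMbnl1_pcDNA, 10 members rose and 3 fell, beside 32.8% of all genes called (17% higher and 15.8% lower). Egr2, a factor of myelination and hindbrain patterning, stood at 78.4, 46.9 and 70.0 with siNT_pcDNA and 169.7, 167 and 172 with siMbnl1_pcDNA (1.40, SE 0.19, adjusted p = 4.98e-05), and Myc at 4807, 4842 and 5550.1 and 11388, 12349.9 and 11454 (1.21, SE 0.08, adjusted p = 7.19e-08). Ier5 (1.06), Cxcl1 (0.64), Junb (0.61), Jun (0.57), Ier2 (0.46), Klf6 (0.41), Fosl2 (0.33) and Klf10 (0.18) rose, and Egr3 (-0.65), Cyr61 (-0.58) and Maff (-0.34) fell. Cxcl1, Ier2, Klf10 and Maff were no longer called when siMbnl1_pcDNA 1 or 2 was left out. Cxcl1 and Klf10 were also lost without siMbnl1_pcDNA 3, Cxcl1 without siNT_pcDNA 2, Klf10 without siNT_pcDNA 1 and Maff without siNT_pcDNA 3. Arc, which rose with siFmr1_pcDNA, had a change of 0.14 with siMbnl1_pcDNA and was not called. Among 14 inflammatory genes 7 rose and 0 fell with siMbnl1_pcDNA, and 2 rose and 1 fell with siFmr1_pcDNA. Of 21 upstream genes, 3 rose and 7 fell with siMbnl1_pcDNA and 3 rose and 5 fell with siFmr1_pcDNA.

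With all 15 libraries in the fit, few members were called when MBNL1 was added. Against siFmr1_pcDNA, the nuclear MBNL1 of siFmr1_nMBNL1 went with 2 lower members and 0 higher, beside 1.76% of all genes called, and Mbnl1 counts were 276% of the siNT_pcDNA level. Egr3 went from 327, 219.7 and 299 to 177, 121 and 183 (-0.81, SE 0.18, adjusted p = 0.0343 by limma) and Btg2 from 431, 405 and 507 to 332, 266 and 259 (-0.65, SE 0.12, adjusted p = 0.0174). Neither was called without siFmr1_nMBNL1 2 or 3 or without siFmr1_pcDNA 1 or 3. Against siMbnl1_pcDNA, cytosolic MBNL1, with Mbnl1 counts at 449.6% of the siNT_pcDNA level, went with 1 lower member, Egr3, from 427, 518 and 440.5 to 246, 322 and 215 (-0.84, SE 0.18, adjusted p = 0.029 by limma), beside 2.24% of all genes called. This call was lost when any library of the 2 groups other than siMbnl1_cMBNL1 2 was left out. With only the 2 groups compared in the fit, 12 members were called for nuclear MBNL1 (11 lower) and 11 for cytosolic MBNL1 (9 lower). Those fits called 2812 and 2854 genes in all, beside 286 and 364 in the fit of 15 libraries. In the fit of 15 libraries 30 of 36 members were below 0 with nuclear MBNL1 and 16 had an unadjusted p under 0.05, beside 17.9% of all genes, and with cytosolic MBNL1 24 were below 0 and 9 had an unadjusted p under 0.05, beside 19.4%. Egr3 lay further from siNT_pcDNA with MBNL1 added than without it, in both arms. Against siNT_pcDNA it was -2.19 with siFmr1_nMBNL1 beside -1.37 with siFmr1_pcDNA, and -1.48 with siMbnl1_cMBNL1 beside -0.65 with siMbnl1_pcDNA. In the same order, Cyr61 was -1.91 beside -1.66 and -0.84 beside -0.58, and Arc was 0.84 beside 0.90 in the siFmr1 arm. In all, 20 members fell and 1 rose with siFmr1_nMBNL1 (41.1% of all genes called), and 5 fell and 9 rose with siMbnl1_cMBNL1 (33.7%), each against siNT_pcDNA.

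**Figure D5:**
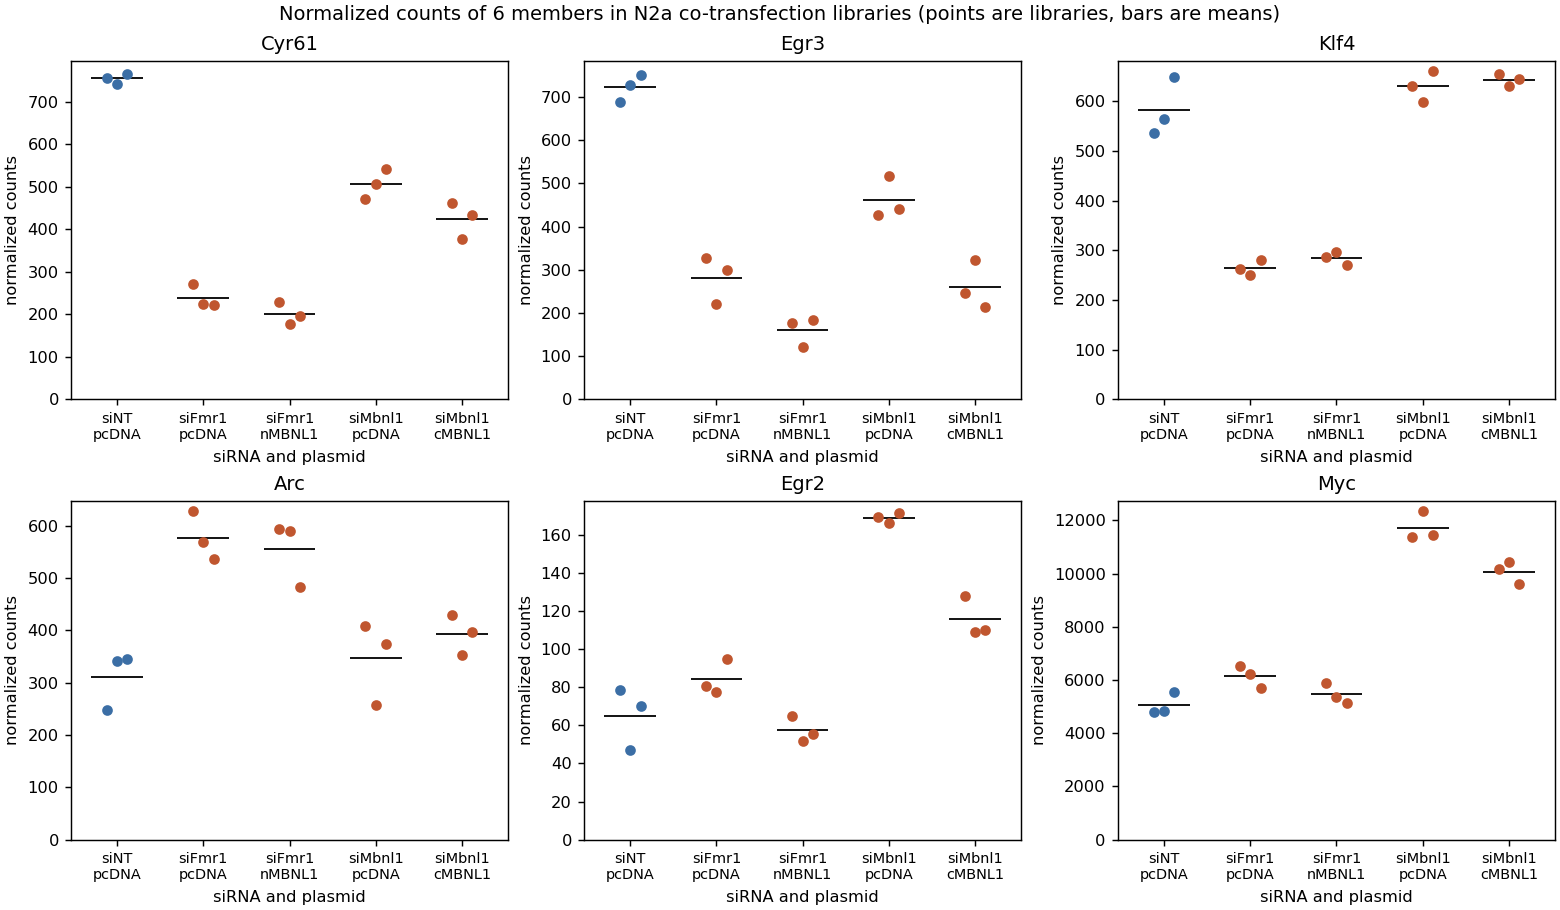
The authors' normalized counts of selected members in the 15 co-transfection libraries, grouped as siNT_pcDNA, siFmr1_pcDNA, siFmr1_nMBNL1, siMbnl1_pcDNA and siMbnl1_cMBNL1; each point is a library and each bar a group mean. Cyr61 lies between 743 and 767 with siNT_pcDNA and between 221 and 272 with siFmr1_pcDNA, and Egr3 is lowest where MBNL1 was added to siFmr1.

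The most abundant members also differed between tissues. Levels were compared between genes as CPM per kilobase of joined exons in WT libraries (siNT in N2a), given as the lowest to the highest library. Cortex was led by Egr1 (53.1 to 59.9), followed by Egr3, Arc, Jund and Ier5. Hippocampus was led by Jun (33.8 to 35.9), then Jund, Egr3, Arc and Egr1, and cerebellum by Jund (28.6 to 38.9), then Jun, Dusp5, Gadd45g and Egr1. By the authors' TPM the leader in cerebellum was Dusp5, and Jund ranked 9 in cortex and 6 in hippocampus. Liver was led by Egr1 (1.67 to 282), then Fos, Jun, Cxcl1 and Zfp36 (by TPM it was led by Cxcl1), and muscle by Nr4a1 (67.8 to 306), then Btg2, Junb, Gadd45g and Fos. In these 2 tissues the range between WT libraries was wider than the steps between neighbouring genes, and their order rests on WT 2 and WT 3. Testis was led by Arc (77.8 to 94.3), then Klf4, Jund, Csrnp1 and Nr4a1, and N2a by Jund (150.3 to 165), then Ier3, Myc, Jun and Ier2. In N2a the order of the genes after Jund is limited by the 2 siNT libraries, between which Ier3 ran from 8.53 to 124.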

How the data were processed

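Gene tables of RNA-seq libraries were used. For the tissues and the first N2a experiment the authors deposited raw counts per gene beside TPM values per gene, per the file headers. For the co-transfection experiment they deposited normalized counts, a library-scaled signal, per the file headers. The submitters' processing notes name CASAVA, FastQC 0.11.8, Trimmomatic 0.39, Bowtie2 2.3.5, STAR 2.6.1, RSEM 1.3.1, DESeq2 1.16.1 and the mouse builds GRCm38 and mm10, without saying which tool made which table. Per the labels' protocols, brain libraries were poly(A)-selected and directional, a service company made and sequenced those of the other tissues and of the first N2a experiment, and the co-transfection libraries were directional. Levels are therefore not compared between these sets by any test.

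Counts were tested per comparison with edgeR 4.0.16 in R 4.3.3 (quasi-likelihood F test, filterByExpr, TMM scaling), with comparisons between brain regions fitted on all 18 brain libraries. Normalized counts were tested with limma 3.58.1 (trend) on log2(value + 1) over all 15 co-transfection libraries, keeping genes with a mean of at least 1 and dropping 4 rows with repeated gene names. P-values were adjusted by Benjamini-Hochberg over all genes tested, and a gene was called at an adjusted p under 0.05. CPM in the text are scaled by TMM. TPM values were used only to check the ranking of members. Both pipelines were tested on simulated data. The alternatives were other scalings and filters, DESeq2 1.42.0, other sets of samples in the fit, a replicate block and leaving out each library. Columns of 2 further libraries (4 columns), matching no labelled sample, and the splicing tables were not used. Figures were drawn with matplotlib 3.10.9.

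The members and all gene lists were chosen with earlier results of these data known. In muscle and liver, comparisons in view when the genes were listed, members are described with no p, although a test of the liver values had been planned. Elsewhere the text names the members called (at most 15 per comparison, by size of change) or, where none was called, the 3 with the smallest p, and describes further members by their values. The co-transfection increase of Myc with the siRNA against Fmr1, and the extra activity genes in brain, were named after their values were seen. Promoter sequences are those of RefSeq on GRCm38.p6, and Ccn1 there was matched to Cyr61.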

Additional observations from a re-analysis of the deposited data

Results flagged for a closer look

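The genotypes separated completely, but in opposite directions, for 3 members in different tissues, and the differences between tissues were not tested. In these tissues and directions, complete separation was found for 7.48% to 15.1% of all genes. The share of all genes that separate in opposite directions in different tissues was not computed. Nothing is therefore read from the count of 3 members. Cyr61 had a log2 difference, KO minus WT, of 0.25 in hippocampus and 0.44 in testis, with every knockout library above every WT library, and of -3.83 in liver and -3.55 in muscle, with every knockout library below. Klf2 had 0.46 in hippocampus, and -1.07 in liver and -2.09 in muscle. Junb had 0.43 in cerebellum and -0.46 in testis. The differences in hippocampus, cerebellum and testis, and that of Klf2 in liver, did not pass the adjusted threshold.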

How the results depend on the processing

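Counts of called members are given here with the alternatives that moved them by more than 1.5 times; the other 206 recomputed counts stayed within that range. In cortex the count went from 0 to 5 with all 18 brain libraries in 1 fit and to 3 with DESeq2, in liver from 3 to 13 with DESeq2, and in testis from 3 to 1 with DESeq2. Over all genes these fits called 1277, 914, 277 and 481, in that order. The reported fits called 3 genes in cortex, 49 in liver and 661 in testis. With only the 2 groups compared in the fit, the count was 12 in place of 2 for siFmr1_nMBNL1 against siFmr1_pcDNA, 11 in place of 1 for siMbnl1_cMBNL1 against siMbnl1_pcDNA, 7 in place of 14 for siMbnl1_cMBNL1 against siNT_pcDNA and 8 in place of 13 for siMbnl1_pcDNA against siNT_pcDNA. Over all genes, in the same order, these fits called 2812 in place of 286, 2854 in place of 364, 3027 in place of 5478 and 2428 in place of 5330. The cause of these shifts was not tested.

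Leaving out 1 library at a time gave 1 to 20 in liver, 0 to 26 in muscle, 1 to 6 in testis and 0 to 6 in cortex, where 6 were called without WT 3. That cortex fit called 1102 genes in all. The tests of regional difference in genotype effect gave 0 to 2 for cortex against cerebellum and 0 to 1 for cortex against hippocampus, each time above 0 only without cortex WT 3. Without that library these tests called 465 and 179 genes in all, in that order. Between WT regions the ranges were 25 to 28 (cortex against cerebellum), 17 to 19 (cortex against hippocampus) and 23 to 25 (hippocampus against cerebellum). Against siNT_pcDNA they were 14 to 22 (siFmr1_pcDNA), 9 to 15 (siMbnl1_pcDNA), 15 to 23 (siFmr1_nMBNL1) and 10 to 18 (siMbnl1_cMBNL1), and they were 0 to 3 for nuclear and 0 to 1 for cytosolic MBNL1 against the same siRNA with pcDNA. Hippocampus, cerebellum, the difference between them and the first N2a experiment stayed at 0.

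Equal replicate numbers were not taken to pair libraries. Between genotypes or siRNA groups, no comparison had every pair of equal number correlated above 0.1 over all genes (r from -0.66 to 0.73) and in none did every library correlate best with its own number. Between brain regions r ran from -0.23 to 0.31, and the WT pairs of no 2 regions were all above 0.1, while the 3 knockout pairs of hippocampus and cerebellum were (0.10 to 0.31). With the replicate number as a block, the counts between WT regions and of regional differences stayed the same, the count in muscle was 0 and that for siFmr1_nMBNL1 against siFmr1_pcDNA was 1. The planned legacy form of edgeR's test coincided with the reported one, as the installed version uses it by default, and the newer form, added after the data were seen, gave 26 in place of 27 between WT cortex and cerebellum and otherwise the same counts in the edgeR comparisons.

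Of the values of named members, 1933 recomputed ones stayed the same, 91 lost and 11 gained the threshold. Another 11 changed sign, all of them uncalled or described without a test. Outside muscle, the same meant an equal direction and side of the threshold. The 410 muscle values among the 1933 were judged without a threshold, by direction and a shift within the larger group standard deviation (log2 scale). They do not speak to the muscle calls, which ran from 0 to 26 when 1 library was left out. The log2 difference in muscle became -0.22 and -0.06 for Ctgf (without KO 1, without WT 1), 0.04, 0.03 and 0.13 for Jun (without KO 3, WT 2, WT 3), 0.03, 0.000230 and 0.19 for Jund (without KO 2, KO 3, WT 3), and 0.11 (block) and 0.32 (without WT 2) for Nr4a3, and in N2a that of Gadd45b became 0.13 without siNT 2. Leaving out each library gave lowest and highest values of -0.22 and 0.55 for Ctgf, -0.50 and 0.13 for Jun, -0.45 and 0.19 for Jund and -0.91 and 0.32 for Nr4a3 in muscle, and of -1.04 and 0.13 for Gadd45b in N2a.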

Other observations

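Brain libraries that carry the same number and genotype in different regions were compared over the 36 members, as a description. The deviation of a library from its group mean (log2 CPM with 0.5 added) had a Pearson's r from -0.11 (hippocampus WT 1 and cerebellum WT 1) to 0.62 (cortex WT 1 and hippocampus WT 1) over 18 pairs, and over all 15504 genes r ran from -0.23 to 0.31. The genes share their libraries, the deviations within a group sum to 0, libraries of different number were not compared, and the labels do not say that a number marks an animal, so no pairing is read from these values.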
